A study of Mus musculus with 9 samples.

Results

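The data compare the RNA of mouse pancreatic tumour cells recovered from lung metastases with a high or a low signal from a reporter of Gstt1. The comparison covered every gene at 1 CPM (reads of the gene, scaled by the total of its library) or more in at least 3 of the 6 libraries, which held for 15437 of the 24012 genes in the table. It used 6 of the 9 libraries of the series, 3 sorted as mCherryHigh and 3 as mCherryLow. Both groups shared 1 genotype, which includes SIRT6F/F, p48-Cre and p53F/+, and both were pancreatic ductal adenocarcinoma cells carrying GFP and Gstt1-mCherry. They were sorted 6 weeks after injection into the tail vein, so the tumours had formed in the lung from cells placed in the blood and not from a tumour in the pancreas. p48-Cre is driven from the Ptf1a locus, which is active in pancreatic progenitors and acinar cells. The label that sets the groups apart is the mCherry gate, and there is no untreated or wild-type library among them. The libraries are numbered 1, 5 and 6 in each group. The labels do not say that they came from separate mice, so p-values measure only the spread between these libraries, which may be technical.

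Gstt1 is a theta-class glutathione transferase, an enzyme that joins glutathione to electrophilic compounds so that the cell can export them. Glutathione transferases as a family act downstream of oxidative and xenobiotic stress, and many of them are induced by the transcription factor NRF2. Tumour cells that grow must copy DNA, assemble chromatin, build ribosomes and make protein, whereas cells that divide slowly lower these programmes. Ductal pancreatic tumours can also move between an epithelial state, with junctions and keratins, and a mesenchymal one, and the matrix and growth factor receptors around them change with that state.

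Depth ran from 643748 reads in mCherryHigh 1 to 11861241 in mCherryLow 6, and a single read was worth 1.55 CPM in the former and 0.0843 CPM in the latter. A count of 0 therefore allows up to 4.66 CPM in mCherryHigh 1 (3 reads, counting error only) and at most 0.307 CPM in each library numbered 5 or 6. mCherryHigh 1 stood apart on the first principal component, which held 41.5% of the variance. Both libraries numbered 1 also stood apart from those numbered 5 and 6: 7 genes were at 50 CPM or more in both and at 3 reads or fewer in each of the other 4, and 3 genes showed the reverse. The adaptor Tyrobp, for example, had 1873 CPM and 1156 CPM in the low and the high library numbered 1 and 0 reads in the other 4. The mast cell protease Mcpt1 was at 0 reads in both libraries numbered 1 and between 523 and 1428 CPM in the others. Results are therefore also given for the pair numbered 1 and for the libraries numbered 5 and 6 alone. Codes in the label descriptions put the pair numbered 1 in a series of its own, mCherryLow 5, mCherryLow 6 and mCherryHigh 5 in another, and mCherryHigh 6 alone. What the codes mean is not stated.

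Ductal identity held in both groups, and the cells were not free of lung and blood transcripts. Krt19, a keratin of ductal cells, lay between 896 and 1320 CPM in mCherryLow and between 1102 and 2369 CPM in mCherryHigh, and the epithelial adhesion molecule Epcam was present in all 6 libraries at 10.9 to 45.4 CPM. The summed level of the 18 endothelial markers was 191 to 246 CPM in mCherryLow libraries against 253 to 300 CPM in mCherryHigh, without overlap. That of the 18 fibroblast and pericyte markers was 114 to 225 CPM against 219 to 258 CPM, and that of the 26 macrophage and monocyte markers was 647 to 4976 CPM against 1242 to 3273 CPM, both with overlap. Tyrobp and Ear2 carry the top of the macrophage range in both groups. Without them that list summed to 1317, 647 and 895 CPM in mCherryLow 1, 5 and 6 and to 843.5, 1327 and 1242 CPM in mCherryHigh. The 12 general leukocyte markers summed to 440 to 834 CPM against 415 to 991 CPM. Members of these lists differed widely in level. The macrophage genes Cd68 and Mrc1 were at 113 to 270 CPM and 101 to 254 CPM over the 6 libraries, whereas the complement gene C1qa was at 1.55 CPM or less. The alveolar transporter Abca3 was at 60.6 to 128 CPM, whereas the surfactant gene Sftpc was at 1.55 CPM or less and the T cell gene Cd3e had a read in mCherryHigh 1 alone. The endothelial receptor Flt1 was at 112 to 165 CPM against 141 to 196 CPM, and the endothelial cadherin Cdh5 was at 0 to 4.23 CPM in mCherryLow libraries against 5.41 to 12.5 CPM in mCherryHigh. The part of these markers in the results below was not tested. In such sorted bulk samples, fewer cells of a type and less RNA per cell cannot be told apart.

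Gstt1 (ENSMUSG00000001663) was at 15.1, 11.9 and 29.4 CPM in mCherryLow 1, 5 and 6 and at 60.6, 48.4 and 50.9 CPM in mCherryHigh 1, 5 and 6. The groups did not overlap, so the transcript followed the sort on its reporter. The difference was 1.55 (SE 0.42, n = 3 in each group) on the scale of log2(CPM + 1), which is used for every difference here, with a limma adjusted p of 0.444. The exact permutation p (two-sided) was 0.1, the smallest that 3 libraries against 3 allow. The difference was 1.93 in the pair numbered 1 and 1.35 in the libraries numbered 5 and 6. The genes of the labelled genotype give no check of the groups, since both carry the same alleles and gene counts do not resolve a deleted exon. Sirt6 was read at 10.03 to 12.2 CPM in mCherryLow libraries against 7.55 to 24.9 CPM in mCherryHigh. Trp53 was at 8.01 to 20.5 and 7.77 to 26.5 CPM.

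Across all genes, the tools differed in what they called. limma called 0 of 15437 genes (0% in either direction), with a smallest adjusted p of 0.444, although 1448 had an unadjusted p under 0.05, 939 higher (6.08%) and 509 lower (3.3%). edgeR on the reads recovered from the CPM also called 0, with 1221 at an unadjusted p under 0.05. DESeq2 on the same reads called 148, 49 higher (0.317%) and 99 lower (0.641%). The DESeq2 count moved from 52 without mCherryLow 5 to 353 without mCherryLow 6, and was 76 without mCherryLow 1, 91 without mCherryHigh 6, 224 without mCherryHigh 5 and 158 without mCherryHigh 1. Genes are therefore described below by their values in each library and by whether the groups overlap. The 3 mCherryHigh libraries all exceeded the 3 mCherryLow libraries for 1567 genes (10.2% of those tested) and were all under them for 893 (5.78%), and these shares are the background against which each gene list is read. The split between the directions depended on the scaling: 63.7% of these genes were higher as deposited, 47.0% after median-of-ratios scaling, 47.8% after quantile normalization, 59.9% after thinning to the shallowest library and 43.6% after removal of a trend with transcript length. The median difference of all genes was 0.09 as deposited and -0.04 after median-of-ratios scaling, so list medians are given relative to the median of all genes. As deposited, 8714 tested genes were higher in mCherryHigh and 6723 lower, overlap aside. That split is the background for counts of list members higher or lower. The filter also favoured mCherryHigh: 207 tested genes reached 1 CPM in no mCherryLow library, and 24 reached it in no mCherryHigh library.

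The genes with the widest separation were ranked by the gap between the groups, the distance on the log2 scale from the lowest library of the higher group to the highest library of the lower group. The 12 genes ranked highest in each direction, each averaging 10 CPM or more where it was higher, had limma adjusted p-values of 0.444 to 0.449. DESeq2 called 12 of the 12 higher and 11 of the 12 lower, beside 0.317% and 0.641% of all genes. The ranking used the same libraries, so these calls are not separate support. The plot of the gap genes shows every library's value for them.

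**Figure D1:**
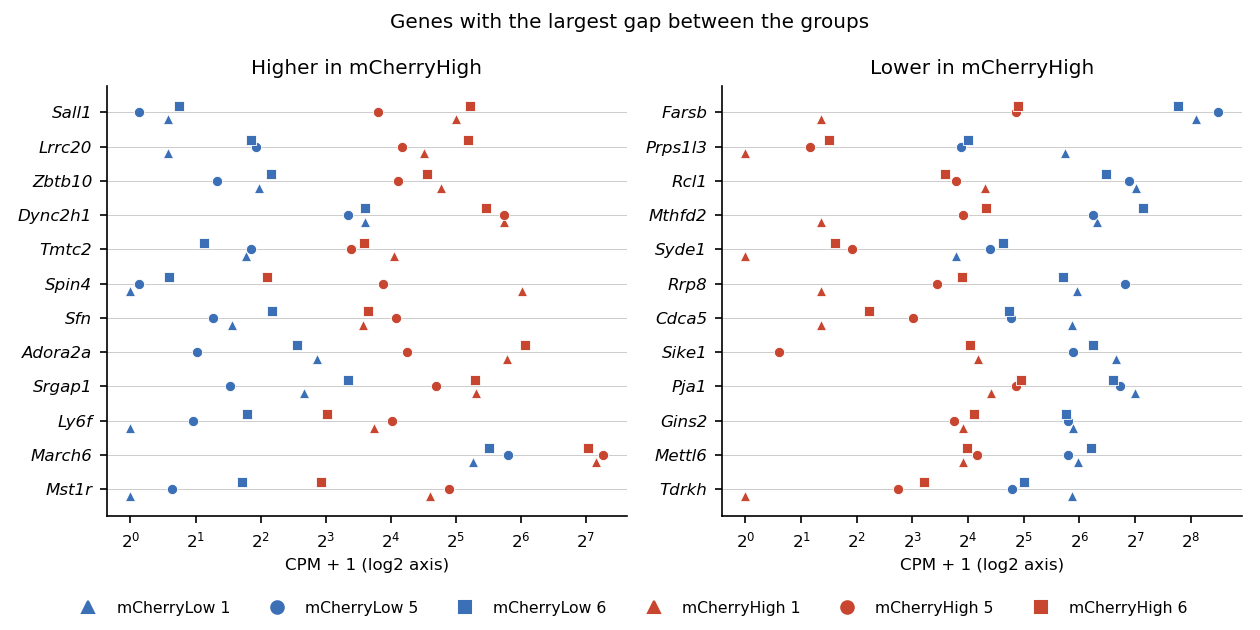
Level of the 12 genes with the largest gap in each direction, as CPM + 1 on a log2 axis; each point is 1 library, colour gives the group and shape the library number. In every row all 3 mCherryHigh points lie on 1 side of all 3 mCherryLow points, and several of the lower genes are at 0 or 1 read in mCherryHigh 1.

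Sall1 (ENSMUSG00000031665), a zinc finger transcription factor of the Spalt family that acts in kidney and limb development, had the largest gap among the ranked genes. It was at 0.488, 0.0939 and 0.674 CPM in mCherryLow 1, 5 and 6, close to absent, and at 31.1, 12.96 and 36.1 CPM in mCherryHigh. Sall1 thus passed the filter of 1 CPM through mCherryHigh alone. The gap was 3.06 and the difference 4.19 (SE 0.57). Lrrc20, a leucine-rich repeat protein, was at 0.488, 2.82 and 2.61 CPM against 21.7, 17.1 and 35.5 CPM. The zinc finger gene Zbtb10 was at 2.93, 1.502 and 3.46 CPM against 26.4, 16.3 and 22.6 CPM. Dync2h1, the heavy chain of the dynein that returns cargo along cilia, was tight within both groups, at 11.2, 9.11 and 11.1 CPM in mCherryLow libraries against 52.8, 52.6 and 43.4 CPM in mCherryHigh. Adora2a, a receptor for adenosine, was at 6.34, 1.03 and 4.89 CPM against 54.4, 18.1 and 66.0 CPM. Sfn, the 14-3-3 sigma protein of epithelial cells, was at 1.41 to 3.54 CPM against 10.9 to 15.9 CPM. Srgap1, a GTPase-activating protein of Slit and Robo signalling, was at 1.88 to 9.11 CPM against 25 to 38.8 CPM. The other higher genes were Tmtc2, Spin4, Ly6f, the membrane ubiquitin ligase March6 and the receptor Mst1r, with differences of 2.09, 3.76, 2.68, 1.63 and 3.36. Spin4 varied widely within mCherryHigh, at 63.7, 13.7 and 3.27 CPM. It was under 1 CPM in every mCherryLow library and so also passed the filter through mCherryHigh alone.

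Among the lower genes, Rcl1, which takes part in maturation of the small ribosomal subunit RNA, had the smallest p of all genes and was at 128, 118 and 87.6 CPM in mCherryLow libraries against 18.6, 12.8 and 11.04 CPM in mCherryHigh, a difference of -2.90 (SE 0.35). Farsb, a subunit of the enzyme that charges tRNA with phenylalanine, had the largest gap among lower genes (-2.86). It was at 273, 360 and 217 CPM against 1.55, 28.0 and 28.9 CPM, where the 1.55 CPM of mCherryHigh 1 is a single read. The difference in Farsb was -6.75 in the pair numbered 1 and -3.25 in the libraries numbered 5 and 6. Rrp8, a methyltransferase of ribosomal RNA, was at 60.9, 112 and 51.0 CPM against 1.55, 9.90 and 13.9 CPM. Mettl6, a tRNA methyltransferase, was at 61.9, 54.4 and 72.7 CPM against 13.98, 16.9 and 14.8 CPM, with a difference of -2.07 in the pair numbered 1 and -1.92 in the others. Mthfd2, the mitochondrial folate enzyme that serves purine synthesis, was at 79.0, 74.6 and 140 CPM against 1.55, 14.1 and 18.9 CPM. Prps1l3, of the family that makes the ribose phosphate of nucleotides, was at 52.2, 13.7 and 14.9 CPM against 0, 1.22 and 1.84 CPM, and its reads may be shared with a near-identical copy. Cdca5, the cohesin factor sororin, was at 57.5, 26.4 and 25.5 CPM against 1.55, 7.04 and 3.68 CPM. The ubiquitin ligase Pja1 was at 127, 105 and 96.2 CPM against 20.2, 28.1 and 29.9 CPM. The scaffold Ccm2, among the 5 smallest p-values, was at 174, 235 and 193 CPM against 51.3, 67.5 and 74.4 CPM. The remaining lower genes, Syde1, Sike1 and Tdrkh, differed by -3.09, -3.32 and -3.23.

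The lists of translation, replication, the proteasome, the respiratory chain and the TCA cycle described below held more members without overlap on the lower side than the 5.78% of all genes. Glycolysis did not, with 1 of 22 members lower (4.55%) and 2 higher (9.09%). The epithelial lists, collagens and laminins, and receptor tyrosine kinases held more on the higher side than the 10.2% of all genes. Matrix proteases and inhibitors were near that share, with 3 of 25 (12%). After thinning to the shallowest library, the count without overlap on the same side went from 9 to 4 for the replication fork, from 8 to 5 each for nucleotide synthesis and RNA polymerase III, from 12 to 7 for collagens and laminins, from 11 to 6 for receptor tyrosine kinases and from 7 to 3 for TGF-beta signalling. With the length trend removed, TGF-beta signalling had 4. After quantile normalization, receptor tyrosine kinases had 7, keratins 3 in place of 5 and retinoid metabolism 3 in place of 5. After median-of-ratios scaling, keratins had 2, and the proteasome had 20 lower in place of 13. The background moved as well. Over all genes, 1170 were higher and 1318 lower without overlap after median-of-ratios scaling, and 1033 and 1129 after quantile normalization. After thinning the counts were 1147 and 769 of 15771 genes, and with the length trend removed 1002 and 1296 of 14951. The 2 of 24 keratins after median-of-ratios scaling were thus close to the share of all genes. So were the 3 of 36 TGF-beta genes after thinning. The plot of shares without overlap sets each list against the shares of all genes as deposited.

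**Figure D2:**
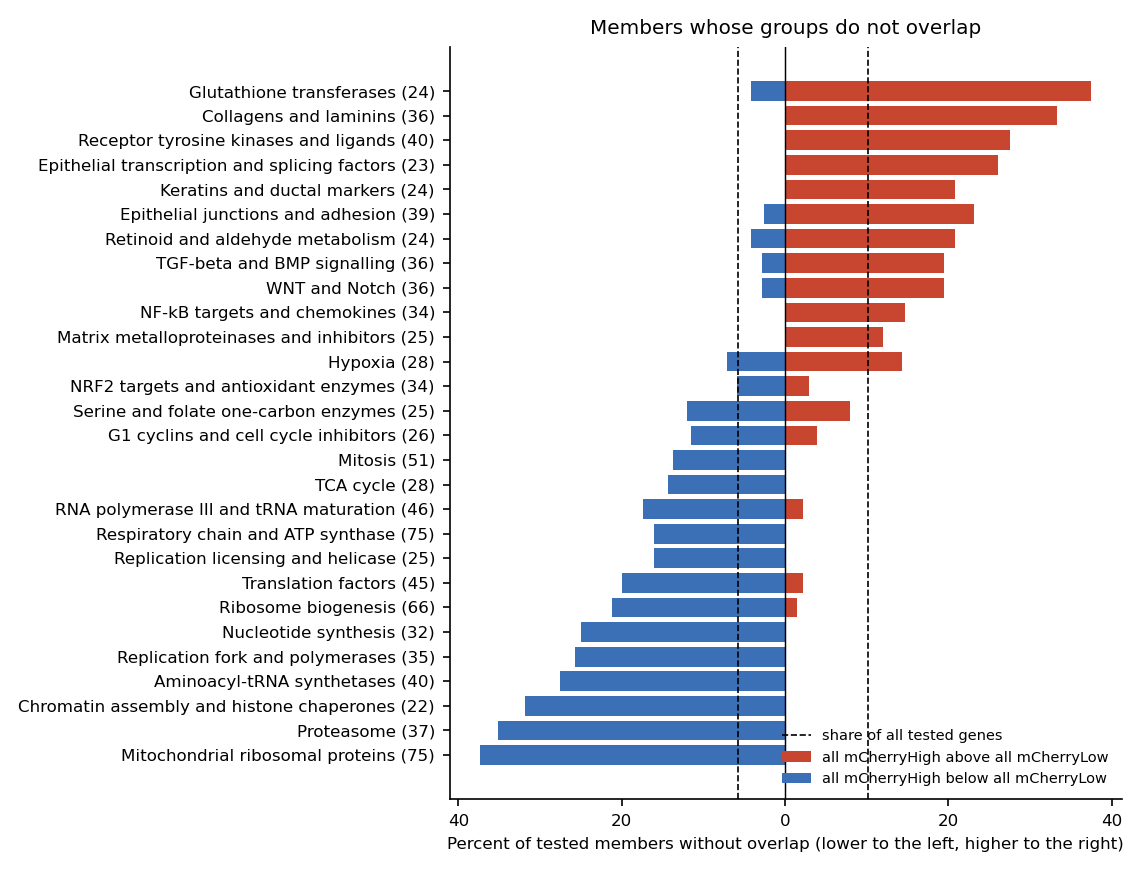
Percent of tested members of each gene list whose groups do not overlap, to the right where all mCherryHigh libraries are above all mCherryLow libraries and to the left where they are below; dashed lines are the shares of all 15437 tested genes (10.2% higher, 5.78% lower) and the number of members is in parentheses. Mitochondrial ribosomal proteins reach furthest to the left (37.3%) and glutathione transferases furthest to the right (37.5%, Gstt1 included).

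Mitochondrial ribosomal proteins, which translate the few proteins encoded by mitochondrial DNA, formed the list with the largest share on the lower side. Of 75 tested members, 69 were lower in mCherryHigh, 28 without overlap (37.3%), and 0 were higher without overlap. The list median was -0.41 relative to all genes. It was -0.61 in the pair numbered 1 and -0.47 in the libraries numbered 5 and 6. Mrps27 of the small subunit was at 31.2, 56.9 and 27.6 CPM in mCherryLow libraries against 1.55, 10.4 and 7.87 CPM in mCherryHigh, a difference of -2.56 (SE 0.67). Mrps2 was at 64.4, 52.0 and 44.9 CPM against 17.1, 23.7 and 27.5 CPM. Of the large subunit, Mrpl50 was at 101, 74.3 and 58.2 CPM against 34.2, 44.6 and 40.8 CPM. Each of the 3 has the lowest mCherryLow library well above the highest mCherryHigh one. Subunits of the respiratory chain and ATP synthase had a smaller share, 12 of 75 (16%), with 69 lower and a median of -0.31. Enzymes of the TCA cycle, which feeds that chain, had 25 of 28 lower, 4 without overlap (14.3%), and a median of -0.32.

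Aminoacyl-tRNA synthetases, the enzymes that load tRNAs with amino acids, were lower in 38 of 40 cases, 11 without overlap (27.5%). Their median of -0.54 was the lowest of the lists described here. It was -0.48 in the pair numbered 1 and -0.76 in the libraries numbered 5 and 6. Gars, for glycine, was at 362, 430 and 428 CPM in mCherryLow libraries against 208, 166 and 162 CPM in mCherryHigh, a difference of -1.19 (SE 0.21). Nars, for asparagine, was at 521, 597 and 458 CPM against 287, 356 and 290 CPM. Dars, for aspartate, was at 191, 275 and 149 CPM against 80.8, 104 and 90.8 CPM. Cars, for cysteine, varied more, at 178, 312 and 108 CPM against 24.9, 86.9 and 25.9 CPM. In mCherryHigh 1, Gars rests on 134 reads and Nars on 185, but Dars on 52 and Cars on 16. The mitochondrial Hars2 was at 67.8, 26.6 and 8.35 CPM against 0, 9.49 and 5.01 CPM and overlapped.

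Factors that transcribe tRNA genes and finish the tRNAs were mostly lower. Of 46 tested members of RNA polymerase III and tRNA maturation, 37 were lower, 8 without overlap (17.4%), and the median was -0.31. It was -0.01 in the pair numbered 1 and -0.57 in the libraries numbered 5 and 6. Brf1, the subunit of the initiation factor TFIIIB used at tRNA genes, was at 106, 132 and 68.0 CPM in mCherryLow libraries against 26.4, 25.6 and 22.4 CPM in mCherryHigh, a difference of -1.95 (SE 0.34). Brf2, its relative used at the U6 gene and similar promoters, was the single member higher without overlap, at 2.93, 2.91 and 6.24 CPM against 29.5, 14.9 and 10.4 CPM (1.88, SE 0.58). Nsun2, which methylates cytosines of tRNA, was at 220, 443 and 170 CPM against 85.4, 103 and 87.7 CPM. Ctu2, which thiolates the tRNA wobble base, was at 68.7, 40.1 and 16.9 CPM against 0, 4.08 and 6.95 CPM, and Elp4 of the Elongator complex at 10.2, 19.6 and 22.2 CPM against 0, 1.63 and 3.27 CPM. DESeq2 called 4 of the 46 members, Brf1, Elp4, Nsun2 and Ctu2, all lower, beside 0.641% of all genes called lower. limma and edgeR called none of them.

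Ribosome biogenesis factors were lower in 55 of 66 cases, 14 without overlap (21.2%), with a median of -0.53. The transcription factor Myc, which drives many of these genes, was at 359, 345 and 288 CPM in mCherryLow libraries against 216, 241 and 218 CPM in mCherryHigh. Its antagonist Mxd1 was the list's single member higher without overlap, at 30.7, 12.96 and 53.9 CPM against 57.5, 74.4 and 89.0 CPM. Nop16, a nucleolar protein, was at 99.5, 175 and 84.7 CPM against 38.8, 50.4 and 44.2 CPM. The kinase Riok1, which acts on the small subunit, was at 77.0, 80.9 and 42.7 CPM against 31.1, 29.6 and 20.8 CPM. Rrs1, of the large subunit, overlapped, with mCherryLow 6 low: 121, 101 and 9.11 CPM against 1.55, 11.02 and 3.07 CPM. Cytosolic translation factors were lower in 35 of 45 cases, 9 without overlap (20%), with a median of -0.24 that was 0.04 in the pair numbered 1.

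Proteasome subunits, which form the machine that degrades ubiquitin-tagged proteins, were lower in 35 of 37 cases and 13 did not overlap (35.1%). The median was -0.39, and it was -0.38 in the pair numbered 1 and -0.43 in the libraries numbered 5 and 6. Psmd2, of the base of the regulatory particle, was at 371, 645 and 443 CPM in mCherryLow libraries against 157, 288 and 141 CPM in mCherryHigh. Psmd3, of its lid, was at 392, 538 and 310 CPM against 267, 195 and 161 CPM. Psme3, a subunit of the nuclear activator, was at 367, 250 and 259 CPM against 196, 138 and 178 CPM. The differences of these 3 were -1.35, -0.99 and -0.76. The mean level of the list, as log2(CPM + 1), was 7.68, 7.72 and 7.74 in mCherryLow and 7.46, 7.23 and 7.43 in mCherryHigh.

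**Figure D3:**
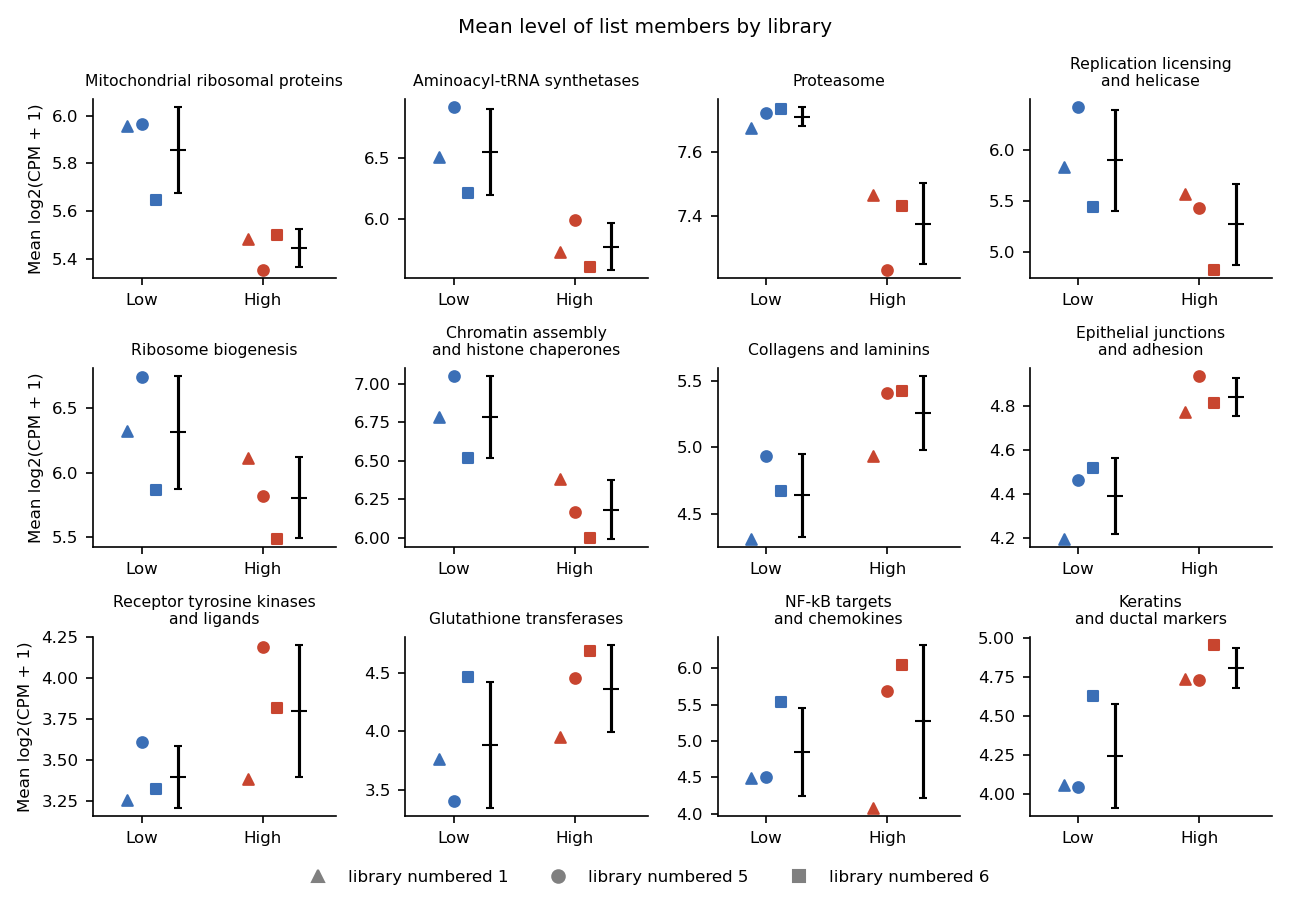
Mean log2(CPM + 1) over the tested members of 12 gene lists in each library, with shape for the library number and black marks for the mean and SD of the 3 libraries; axes do not start at 0. The proteasome libraries lie at 7.68 to 7.74 in mCherryLow and 7.23 to 7.46 in mCherryHigh, whereas the NF-kB targets overlap, with mCherryHigh 1 the lowest of all.

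DNA replication genes had lower list medians in the libraries numbered 5 and 6. For the licensing factors, the median of the pair numbered 1 did not show this, although their mean level was lower in mCherryHigh 1. Of 25 factors that license origins or form the helicase, 21 were lower, 4 without overlap (16%), and the median was -0.53. It was -0.78 in the libraries numbered 5 and 6 and 0.15 in the pair numbered 1, and rose to -0.24 when 1 library was left out. The mean level of the list, as log2(CPM + 1), was 5.83, 6.42 and 5.43 in mCherryLow and 5.56, 5.42 and 4.82 in mCherryHigh. mCherryHigh 5 was thus level with mCherryLow 6, as it was for the fork list described next (5.35 and 5.36). Gins2, of the GINS part of the helicase, was tight in both groups, at 58.0, 54.7 and 52.9 CPM in mCherryLow libraries against 13.98, 12.4 and 16.3 CPM in mCherryHigh (-1.89, SE 0.33). Mcm6, a subunit of the helicase ring, was at 236, 326 and 162 CPM against 66.8, 111 and 56.7 CPM (-1.62, SE 0.36). Geminin (Gmnn), which blocks licensing outside its window, was at 73.6, 53.8 and 35.4 CPM against 20.2, 30.5 and 27.4 CPM. Mcm5, another subunit of the same ring, overlapped: it was at 87.8, 237 and 113 CPM against 216, 141 and 76.4 CPM, with mCherryHigh 1 among the highest. Over the libraries numbered 5 and 6 alone, Mcm5 averaged lower in mCherryHigh, as Mcm6 did.

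The fork list, with polymerases, clamp loaders and the proteins that stabilise forks, had 29 of 35 members lower, 9 without overlap (25.7%), and a median of -0.47. Here the pair numbered 1 had the lower median, -0.64, against -0.52 in the libraries numbered 5 and 6. Rfc2 and Rfc4 of the clamp loader were at 113, 104 and 93.0 CPM against 63.7, 65.3 and 61.5 CPM, and at 45.3, 51.6 and 30.2 CPM against 1.55, 15.7 and 14.6 CPM. Tipin, which protects stalled forks, was at 129, 100 and 47.2 CPM against 41.9, 29.6 and 26.8 CPM. Pcna, the sliding clamp itself, overlapped, at 60.0, 56.5 and 39.2 CPM against 43.5, 46.0 and 39.6 CPM.

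Promoters were read for sites of the E2F factors, which control S phase genes and some of which were also lower. E2f1 was at 76.1, 140 and 97.1 CPM in mCherryLow libraries against 37.3, 54.2 and 45.3 CPM in mCherryHigh. E2f4, a mainly repressive member, was at 178, 141 and 58.2 CPM against 20.2, 33.8 and 28.9 CPM. Windows from 250 bases before to 50 bases after each RefSeq gene start (GRCm38.p6) were searched on both strands for TTTCGCGC, TTTGGCGC, TTTCCCGC and TTTGCCGC, which are forms of the E2F site and can overlap one another. A form was present in 9 of 19 licensing genes with a window (47.4%), 9 of 28 fork genes (32.1%) and 4 of 19 chromatin assembly genes (21.1%). The shares were lower in nucleotide synthesis, with 2 of 27 (7.41%), and in mitosis, with 3 of 43 (6.98%). A form was present in 4.22% of the 10443 tested genes with a window and 2.6% of all 27025 genes. The windows of Mcm6 and Mcm5 are shown because both hold such letters while the difference in level was -1.62 for one and -0.01 for the other. They lie at chr1:128359656-128359955 (minus strand) and chr8:75109259-75109558 (plus strand), are written 5′ to 3′ along the gene, and have the matches in capitals; the first capitals of each cover 2 overlapping matches.
Mcm6: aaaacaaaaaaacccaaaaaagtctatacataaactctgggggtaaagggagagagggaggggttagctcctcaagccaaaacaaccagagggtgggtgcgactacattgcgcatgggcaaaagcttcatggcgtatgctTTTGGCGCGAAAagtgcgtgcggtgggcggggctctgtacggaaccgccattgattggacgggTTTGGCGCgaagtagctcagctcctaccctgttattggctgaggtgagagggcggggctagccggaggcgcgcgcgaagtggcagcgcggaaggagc
Mcm5: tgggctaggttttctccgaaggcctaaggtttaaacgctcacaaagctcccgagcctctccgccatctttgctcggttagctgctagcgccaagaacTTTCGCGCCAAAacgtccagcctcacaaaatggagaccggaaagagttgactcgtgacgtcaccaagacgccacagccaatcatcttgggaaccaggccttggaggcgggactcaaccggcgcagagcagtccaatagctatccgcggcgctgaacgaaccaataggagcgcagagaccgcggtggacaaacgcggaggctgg
Mcm6 thus held 3 matches and Mcm5 held 2. A match is a description of letters and not of binding. The E-box CACGTG, a site of MYC that reads the same on both strands, was in the windows of 17.2% of ribosome biogenesis genes, 17.2% of aminoacyl-tRNA synthetases and 7.58% of mitochondrial ribosomal proteins, against 11.1% of tested genes.

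Chromatin assembly factors, which place histones on new DNA, were lower in 19 of 22 cases and 7 did not overlap (31.8%), with a median of -0.45. The histone chaperone Asf1b was at 62.4, 75.4 and 61.5 CPM in mCherryLow libraries against 28.0, 43.1 and 26.6 CPM in mCherryHigh. Chaf1a, the large subunit of the assembly factor CAF-1, ranged widely, at 76.5, 142 and 18.4 CPM against 0, 17.1 and 5.22 CPM. H2afx, the histone variant that marks broken DNA, was at 106, 51.1 and 137 CPM against 28.0, 44.8 and 40.3 CPM. Nucleotide synthesis had 23 of 32 members lower, 8 without overlap (25%), with a median of -0.31. Rrm2, the subunit that limits ribonucleotide reductase, was at 302, 464 and 345 CPM against 87.0, 257 and 114 CPM. Dck, which salvages deoxynucleosides, was at 84.3, 90.0 and 42.9 CPM against 17.1, 40.7 and 23.1 CPM.

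Mitotic genes were lower in 31 of 51 cases, 7 without overlap (13.7%), with a median of -0.31. It was -0.05 in the pair numbered 1 and -0.13 with the code series as a term. Ccnb2, a cyclin of entry into mitosis, was at 78.5, 140 and 48.1 CPM in mCherryLow libraries against 1.55, 24.4 and 11.04 CPM in mCherryHigh (-3.15, SE 0.84). Cdc20 and Bub3, an activator and a checkpoint protein of anaphase, were at 120, 118 and 90.0 CPM against 55.9, 70.6 and 66.2 CPM, and at 252, 197 and 164 CPM against 93.2, 123 and 114 CPM. The kinase Cdk1, which those cyclins activate, overlapped at 84.4 to 102 CPM against 59.0 to 92.7 CPM. So did the proliferation antigen Mki67, at 77.1 to 150 CPM against 116 to 155 CPM. Of 26 G1 cyclins, E2F factors and inhibitors, 3 were lower without overlap (11.5%) and Btg1, an antiproliferative protein, was the single one higher, at 198, 158 and 211 CPM against 248.5, 289 and 257 CPM. The cell cycle inhibitor Cdkn1b overlapped, at 6.10 to 16.6 CPM against 8.88 to 18.6 CPM.

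One-carbon enzymes, which supply folate units for purines and thymidine, differed between the library numbers. Their median was -0.41 over 25 members, -0.75 in the libraries numbered 5 and 6 and 0.33 in the pair numbered 1, with 3 lower (12%) and 2 higher (8%) without overlap. Phgdh, the first enzyme of serine synthesis, was at 117, 153 and 105 CPM against 82.3, 82.3 and 88.8 CPM. The folate receptor Folr1 went the other way, at 1.46, 4.32 and 10.1 CPM against 12.4, 18.5 and 14.4 CPM.

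**Figure D4:**
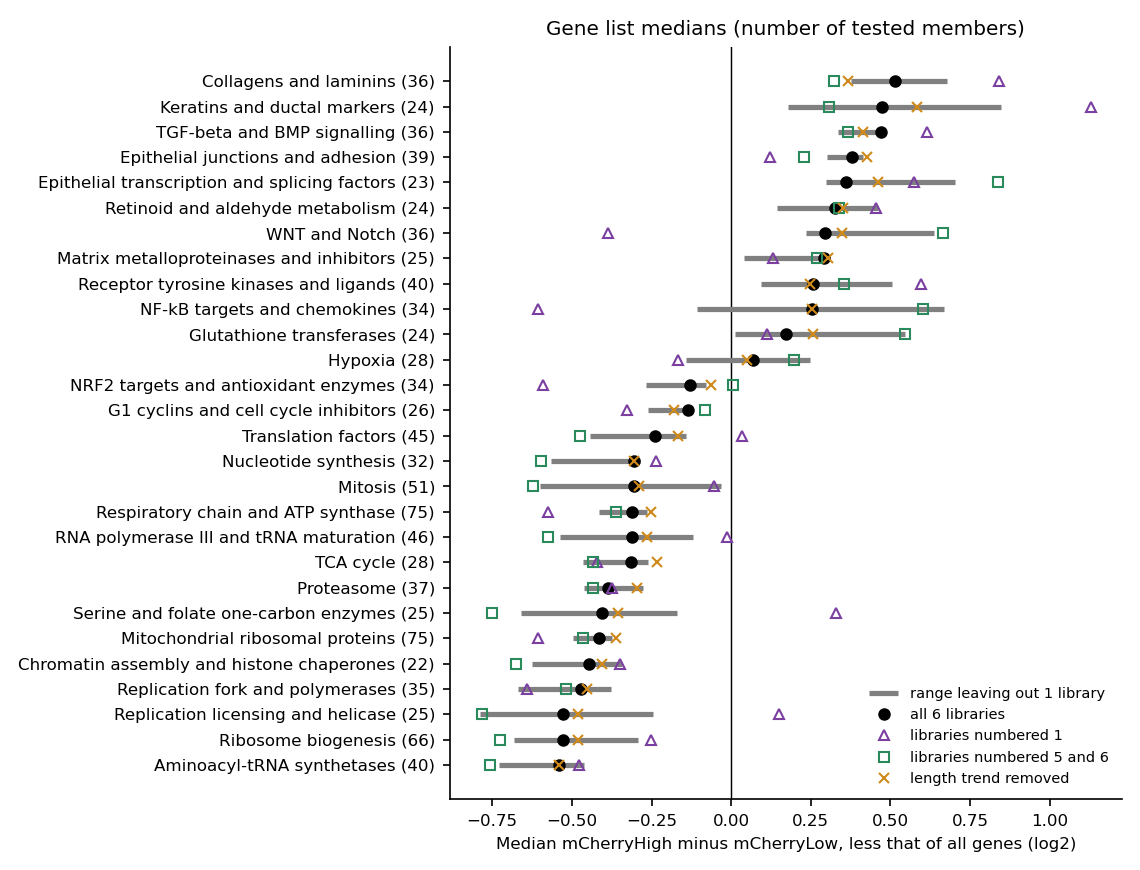
Median difference of each gene list less the median of all genes, on the log2 scale, over all 6 libraries (black), in the pair numbered 1 (triangles), in the libraries numbered 5 and 6 (squares) and with the length trend removed (crosses); grey bars span the values leaving out 1 library at a time. The 2 subsets lie on opposite sides of 0 for the licensing factors (0.15 and -0.78) and the one-carbon enzymes (0.33 and -0.75).

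Some glutathione transferases of low level other than Gstt1 also lay higher in mCherryHigh. Of 24 tested members of 26 in the table, 9 were higher without overlap (37.5%), Gstt1 included, and Gstcd alone was lower (4.17%). After thinning to the shallowest library, 4 were higher and 0 lower without overlap, beside 1147 and 769 of all 15771 genes tested then. The list median was 0.17, and it was 0.11 in the pair numbered 1 and 0.54 in the libraries numbered 5 and 6. It came down to 0.01 when 1 library was left out. The summed level of the list overlapped, at 1082 to 1680 CPM in mCherryLow libraries against 1317 to 1835 CPM in mCherryHigh. Gsta3, an alpha-class enzyme, was at 1.46, 0.657 and 4.05 CPM in mCherryLow libraries against 15.5, 11.3 and 10.7 CPM in mCherryHigh (2.29, SE 0.58). Gstt4, of the theta class, was at 0.488, 2.35 and 5.56 CPM against 7.77, 9.90 and 8.999 CPM. Gsta2 was at 1.46, 2.54 and 5.82 CPM against 13.98, 7.45 and 8.18 CPM. Hpgds, the sigma-class enzyme that makes prostaglandin D, was at 10.2, 4.79 and 9.53 CPM against 12.4, 15.0 and 15.0 CPM. Members that were separated were thus of low level, and reads of Gsta2, Gstm7 and Gstp2 may be shared with close copies. The abundant ones overlapped: Gsto1 was at 484 to 662 CPM against 463 to 709 CPM. Gstp1 was at 111 to 270 CPM against 76.3 to 294 CPM. The theta-class neighbour Gstt3 overlapped at 24.2 to 42.4 CPM against 20.2 to 47.7 CPM.

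Targets of NRF2 did not share the positive list median of the glutathione transferases. Of 34 members, 13 were higher and 21 lower, 1 and 2 of them without overlap (2.94% and 5.88%), and the median was -0.13. It was -0.59 in the pair numbered 1 and 0.00 in the libraries numbered 5 and 6. Sod1, the cytosolic superoxide dismutase, was at 35.1, 37.4 and 44.6 CPM against 69.9, 44.9 and 107 CPM. G6pdx, the entry enzyme of the pentose phosphate pathway, was at 183, 205 and 256 CPM against 141, 175 and 156 CPM. Keap1, the inhibitor of NRF2, varied from 22.8 to 91.2 CPM in mCherryLow and from 0 to 42.9 CPM in mCherryHigh. The antioxidant element TGACNNNGC was in the windows of 31.0% of these targets and 18.2% of glutathione transferases, against 16.7% of tested genes.

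Epithelial genes were higher as a list. Of 39 junction and adhesion genes, 29 were higher, 9 without overlap (23.1%), with a median of 0.38. It was 0.12 in the pair numbered 1 and 0.23 in the libraries numbered 5 and 6. The desmosome proteins Pkp1 and Dsp were at 19.5, 16.8 and 30.4 CPM against 82.3, 60.0 and 76.2 CPM, and at 10.7, 17.7 and 32.5 CPM against 52.8, 41.4 and 62.5 CPM. Cldn4 of the tight junction was at 2.93, 9.20 and 31.8 CPM against 65.2, 62.2 and 40.6 CPM. Crb3, a polarity protein, was at 0.975 to 1.41 CPM against 2.97 to 7.77 CPM. The single member lower without overlap was Ctnna1, the catenin that ties cadherins to actin, at 578, 615 and 622 CPM against 311, 473 and 424 CPM.

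Of 23 transcription and splicing factors of epithelial identity, 6 were higher without overlap (26.1%) and the median was 0.36. Elf3, an ETS factor of epithelium, was at 22.9, 20.6 and 42.1 CPM in mCherryLow libraries against 118, 138 and 87.3 CPM in mCherryHigh (2.01, SE 0.37). Its relative Ehf was at 29.3, 7.61 and 30.8 CPM against 60.6, 54.8 and 67.6 CPM. Grhl2, which maintains junction genes, was at 1.46, 3.57 and 4.81 CPM against 15.5, 19.4 and 7.36 CPM. Of 24 keratins and ductal markers, 5 were higher without overlap (20.8%), with a median of 0.47. It was 1.13 in the pair numbered 1, 0.31 in the others and 0.18 without mCherryHigh 1. The ductal keratins Krt18 and Krt8 overlapped, with mCherryHigh 1 the highest library for each. Krt18 was at 450, 901 and 773 CPM in mCherryLow libraries against 2482, 466 and 379 CPM in mCherryHigh. Krt8 was at 283, 427 and 279 CPM against 923, 306 and 266 CPM. Krt17, a keratin of basal-like tumours, was nearly constant in mCherryHigh, at 107, 108 and 105 CPM, and ranged from 6.34 to 92.0 CPM in mCherryLow. The mesenchymal filament Vim was at 2147, 2185 and 1345 CPM against 1250, 1199 and 1254 CPM, lower without overlap. The mesenchymal list as a whole had 14 members higher and 13 lower.

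Collagens and laminins had the highest median of the pathway lists described here, 0.52, with 30 of 36 members higher and 12 without overlap (33.3%). It was 0.84 in the pair numbered 1 and 0.32 in the libraries numbered 5 and 6. Markers of fibroblasts and pericytes moved with it: 13 of 15 tested markers were higher, 1 without overlap (6.67%), with a median of 0.60, or 1.22 in the pair numbered 1 and 0.54 in the others. Endothelial markers had 12 of 14 higher, 5 without overlap (35.7%), with a median of 0.45. Their part in the collagen and laminin values was not tested. Col6a1, a chain of the microfibril collagen VI, was at 38.0, 20.5 and 12.7 CPM in mCherryLow libraries against 227, 108 and 59.7 CPM in mCherryHigh (2.34, SE 0.57). Col6a3, another chain of it, was at 10.2, 9.30 and 9.95 CPM against 26.4, 22.4 and 23.7 CPM. Col4a5 of basement membrane collagen was at 12.2, 16.4 and 15.3 CPM against 60.6, 29.7 and 90.9 CPM. Lama5, a laminin chain of epithelial basement membranes, was at 52.2, 64.7 and 34.8 CPM against 101, 88.0 and 290 CPM. Of the 25 matrix proteases and inhibitors, 3 were higher without overlap (12%, beside 10.2% of all genes): Plat, Mmp12 and Timp3. Plat, the tissue plasminogen activator, was at 47.3, 86.3 and 95.5 CPM against 266, 273 and 134 CPM. Mmp12, an elastase, was at 45.3, 25.9 and 56.9 CPM against 112, 118 and 86.2 CPM.

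Receptor tyrosine kinases had 11 of 40 members higher without overlap (27.5%) and 0 lower, with a median of 0.26. Egfr, the receptor of EGF, was at 19.99, 45.9 and 23.4 CPM in mCherryLow libraries against 172, 302 and 69.7 CPM in mCherryHigh (2.43, SE 0.57). Its partner Erbb3 was at 40.5, 24.9 and 27.5 CPM against 55.9, 81.1 and 93.6 CPM. Mst1r, the receptor of macrophage stimulating protein, was at 0, 0.563 and 2.28 CPM against 23.3, 28.9 and 6.65 CPM. The collagen receptor Ddr1 was at 46.3, 33.0 and 61.0 CPM against 91.7, 294 and 242 CPM. Ros1 was at 0.469 to 1.52 CPM against 4.09 to 6.33 CPM. DESeq2 called 3 of the 40 members, Egfr, Ddr1 and Mst1r, beside 0.317% of all genes called higher. limma and edgeR called none of them.

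In TGF-beta and BMP signalling, ligands and a co-receptor lay higher and a signal transducer lower. Of 36 members, 26 were higher, 7 without overlap (19.4%), and the median was 0.47. The ligand Tgfb2 was at 7.31, 11.6 and 30.7 CPM against 34.2, 41.9 and 49.4 CPM. The ligand Bmp7 was at 0.0939 to 0.674 CPM against 1.53 to 4.66 CPM, so it passed the filter of 1 CPM through mCherryHigh alone. The BMP target Id1 was at 75.6, 55.0 and 91.6 CPM against 152, 94.0 and 133 CPM. Smad2, which carries the TGF-beta signal to the nucleus, was the single member lower without overlap (2.78%), at 92.6, 139 and 125 CPM against 48.2, 51.4 and 66.8 CPM.

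In WNT and Notch signalling, 7 of 36 members were higher without overlap (19.4%) and Lef1 was lower (2.78%). The list median was 0.29, -0.39 in the pair numbered 1 and 0.66 in the libraries numbered 5 and 6. The WNT co-receptor Lrp6 was at 48.8, 43.0 and 35.7 CPM against 87.0, 71.1 and 122 CPM. The ligand Wnt4 was at 4.88, 1.41 and 6.58 CPM against 23.3, 12.1 and 15.2 CPM. The receptor Notch2 was at 67.3, 100 and 21.8 CPM against 194, 115 and 167 CPM. Lef1, a transcription factor that responds to WNT, was at 3.41, 6.20 and 8.94 CPM against 0, 2.24 and 2.76 CPM, which for mCherryHigh 1 allows up to 4.66 CPM.

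Retinoid and aldehyde metabolism held a gene with one of the larger differences. Aldh1a3, which oxidises retinaldehyde to retinoic acid, was at 11.7, 2.44 and 33.0 CPM in mCherryLow libraries against 109, 77.7 and 91.5 CPM in mCherryHigh (3.02, SE 0.76). Cyp26a1, which breaks retinoic acid down, was at 0 to 1.43 CPM against 2.96 to 7.77 CPM. The binding protein Crabp2 was at 1.502 to 10.8 CPM against 11.3 to 20.8 CPM. Of 24 members, 5 were higher without overlap (20.8%) and 1 lower (4.17%), with a median of 0.33. With the code series as a term, that median was 0.06. The lower one was Aldh9a1, at 178, 174 and 178 CPM against 103, 94.3 and 115 CPM.

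The inflammatory and hypoxia lists were less even. NF-kB targets and chemokines had 5 of 34 members higher without overlap (14.7%) and a median of 0.25, but the median was -0.61 in the pair numbered 1 and 0.60 in the others. It was -0.11 without mCherryHigh 6, -0.02 without mCherryLow 5 and 0.01 without mCherryHigh 5, against 0.67 without mCherryHigh 1. Cxcl5 and Cxcl1, which attract neutrophils, were at 73.1, 53.1 and 136 CPM against 363, 190 and 393 CPM, and at 22.9, 56.4 and 154 CPM against 269, 198 and 310 CPM. Of 28 hypoxia genes, 4 were higher (14.3%) and 2 lower (7.14%) without overlap, and the median of 0.07 was -0.14 without mCherryLow 5, -0.05 without mCherryHigh 5 and -0.01 without mCherryHigh 6. Vegfa, the endothelial growth factor, was at 24.4, 36.6 and 76.4 CPM against 185, 256 and 124 CPM. Ddit4, an inhibitor of the growth kinase mTORC1, was at 15.1, 6.76 and 9.36 CPM against 83.9, 20.6 and 62.6 CPM.

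Transcript length moved with the comparison. Tested genes with an annotated length were put in 10 bins by the longest transcript of the gene. The median difference was between -0.01 and 0.02 in the 6 bins of the shortest genes, then 0.07, 0.13, 0.22 and 0.41 in the longer ones. In the bin of the longest genes, 300 were higher and 25 lower without overlap. Collagens and laminins are long (median 6105 bases) and mitochondrial ribosomal proteins short (1806.5 bases, or 1231 for the respiratory chain). With the length trend removed, the collagen and laminin median was 0.37, with 5 higher without overlap in place of 12, and the receptor tyrosine kinase median was 0.25 with 7 in place of 11. Mitochondrial ribosomal proteins then had a median of -0.36 with 29 lower without overlap, and proteasome subunits -0.29 with 15. Of all 14951 genes with a length, 1002 were then higher and 1296 lower without overlap.

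**Figure D5:**
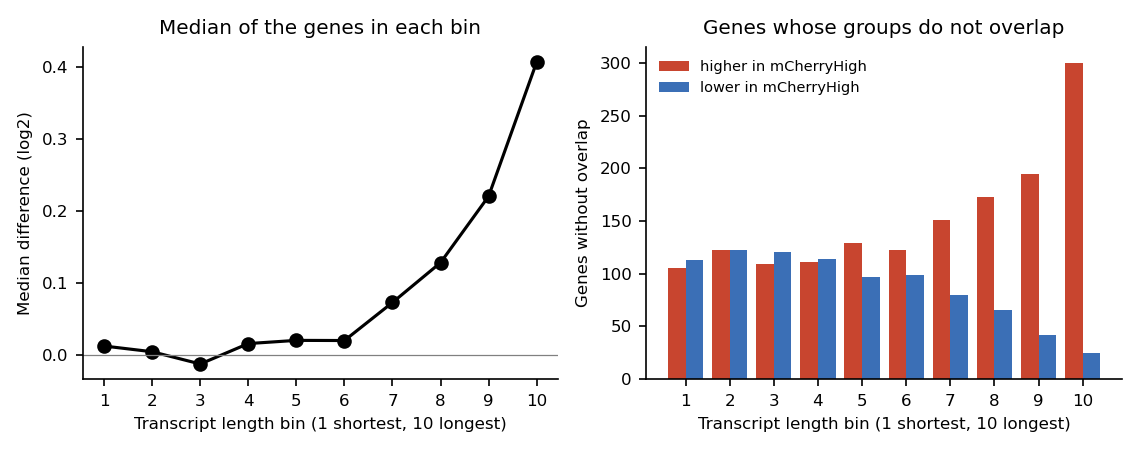
Tested genes in 10 bins of transcript length, from shortest to longest: left, the median difference of mCherryHigh minus mCherryLow on the log2 scale; right, the number of genes higher (red) and lower (blue) without overlap. The median reaches 0.41 and the counts 300 and 25 in the bin of the longest genes.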

How the data were processed

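RNA from 6 sorted samples was compared. Per the labels' protocols, RNA was isolated with a micro-scale column kit, cDNA was made with the SMART-seq v4 kit for low input, and libraries with Nextera XT. The deposited table holds CPM, scaled by the authors, and per the submitters' processing notes the build was mm9. For the aligner, the counter and strand handling: not given in the sources used here. Every value was a whole multiple of 1 read within 0.01 read (100% of values), so reads and totals were recovered; all columns matched a sample (0 unmatched), and 648 entries with shared symbols were kept apart by gene ID.

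Genes at 1 CPM in at least 3 of 6 libraries were tested with limma 3.58.1 (R 4.3.3), using the trend setting, a two-sided test and group as the single term, on log2(CPM + 1), with Benjamini-Hochberg adjustment over all genes at 0.05. The procedure was tested on simulated data. Alternatives were edgeR 4.0.16 and DESeq2 1.42.0 on recovered reads, other pseudocounts, filters, scalings and variance settings, code series, a replicate block and leaving out each library. Thinning, removal of the length trend (GENCODE M21, 94.0% of gene IDs matched) leaving out libraries under DESeq2, and marker sums without Tyrobp and Ear2 were chosen after seeing the data. The members and the 52 gene lists were chosen with earlier results of these data known, so no list was tested. Named genes are Gstt1 and genes of the genotype (1 further allele that both groups carry is not reported here), the 12 largest gaps each way, the 5 smallest p-values, up to 6 members of each described list by p and fixed markers; predicted, ribosomal protein and Y-linked genes were passed over in ranking. Cdk1, Cdkn1b, Cldn6, Ear1, Ear2, Gstcd, Gsto1, Gstp1, Gstt3, Hpgds, Irf7, Mcm5, Mcpt1, Mki67, Mxd1, Myc, Pcna, Ptgs2, Sqle, Tyrobp and Vim were added after their values were seen. Ptf1a was not analysed here. Promoters came from a RefSeq table of build GRCm38.p6.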

Additional observations from a re-analysis of the deposited data

How the results depend on the processing

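No gene was called by limma under any of its settings, including pseudocounts of 0.5 and 5, a filter of 5 CPM, all 9 libraries in 1 fit and thinning, nor by edgeR. DESeq2 called 148. Leaving out each library gave 0 to 0 genes called by limma and a Gstt1 difference of 1.29 to 1.90, against 1.55 with all 6. Same-numbered libraries deviated together in 1 of 3 pairs (correlations of -0.204, -0.0234 and 0.270), and the number was not taken as a pairing. With 3 pairs, these correlations cannot exclude a pairing. Both libraries numbered 1 share a code series and some genes seen in them alone. Interferon-stimulated genes were most abundant in both libraries numbered 6. With the number as a replicate block, 0 genes were called and the Gstt1 difference was 1.55 (limma adjusted p = 0.566). Genes higher without overlap numbered 1567, but 1033 after quantile normalization and 1002 with the length trend removed, and the cause was not tested. DESeq2 calls ran from 52 to 353 when 1 library was left out. List medians with the same sign in all 22 settings (the pair numbered 1 alone was not one of them) include all those of translation, replication, proteasome and respiration, the epithelial, matrix, receptor, TGF-beta and glutathione transferase lists. The replicate block, the robust variance setting and all 9 libraries in 1 fit cannot change a median, so the sign there was fixed in advance. Some medians came near 0, at 0.01 for glutathione transferases and -0.03 for mitosis. The lists of hypoxia, NF-kB targets and NRF2 targets changed sign in at least 1 setting. Depth limits low values most in mCherryHigh 1.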

Other observations

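Interferon-stimulated genes were most abundant in both libraries numbered 6. The 32 listed genes summed to 4034 CPM in mCherryLow 6 and to 4080 CPM in mCherryHigh 6, and lay between 1436 and 2433 CPM in the other 4 libraries, and 0 of them separated the groups. Irf7, a transcription factor of the interferon response, reached 229 and 232 CPM in the low and the high library numbered 6, and 16.1 to 101 CPM in the others. Cholesterol and fatty acid synthesis likewise had 0 of 30 genes without overlap. Sqle, which opens the sterol branch, was at 60.5, 312 and 145 CPM in mCherryLow 1, 5 and 6 and at 269, 359 and 104 CPM in mCherryHigh.

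Of the 7 genes present in the pair numbered 1 and near absent in the other 4 libraries, Tyrobp and the eosinophil-associated ribonucleases Ear1 and Ear2 are known from myeloid cells. Ear2 had 1786 and 1274 CPM in the low and the high library of that pair and 0 reads elsewhere. The reverse set was Mcpt1, the claudin Cldn6 and the prostaglandin synthase Ptgs2, which was at 115 to 325 CPM in the 4 libraries numbered 5 and 6 and at 0 and 1.55 CPM in the pair numbered 1. Other macrophage genes had reads where Tyrobp and Ear2 had 0, with Cd68 at 117.5 to 270 CPM in the libraries numbered 5 and 6. Whether a 0 here stands for an absent transcript or for a gene that was not counted in those libraries cannot be told from the table.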
